A study of Drosophila melanogaster with 3 samples.

Results

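Of the 10160 peaks that passed the irreproducible discovery rate (IDR) step of a Labial chromatin immunoprecipitation, 246 (2.42%) had their summit on an exon away from any promoter. A peak was taken as exonic when its summit fell on a 5' UTR, coding or 3' UTR base of a protein-coding gene and lay more than 500 bp from every protein-coding start site, by Ensembl gene models. The rule used positions alone and no peak strength. It gave 76 summits in 5' UTRs (0.748% of IDR peaks), 34 in coding exons (0.335%) and 136 in 3' UTRs (1.34%). The other 9914 IDR peaks lay at promoters (3581), in introns (4470) or between genes (1863).

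The material was whole Drosophila melanogaster embryos collected over 0 to 24 h, of mixed sex, from a transgenic line stably expressing Labial with GFP at its C terminus, immunoprecipitated with an antibody against GFP. There was 1 group, lab-GFP, with 3 biological replicates. Each replicate list was called against a control that the 3 replicates share, and no embryos lacking the GFP fusion were analysed here. Fragments were sonicated to 200 to 800 bp, which is wide beside many exons. A summit therefore marks a position within an enriched stretch and not a bound base. In whole embryos, stronger binding in few cells and weaker binding in many cells cannot be told apart.

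Labial is a homeodomain protein of the Antennapedia complex, with roles in patterning the head and in specifying copper cells of the midgut endoderm. Homeodomain proteins recognise short AT-rich words, and Labial binds certain enhancers together with the cofactors Extradenticle and Homothorax. Enhancers of developmental genes usually lie in introns and between genes, but exon sequence can also be open chromatin: a 5' UTR exon of a long transcript can lie inside the first intron of a shorter one, and a 3' UTR borders the sequence after the gene. The 3 exon types were therefore described apart.

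Sequence at 4 of the strongest summits is shown first, because these carry some of the highest exonic signals; the stronger otp summit is described later and its sequence is not printed. The 29 bases centred on the summit are given on the strand of the host gene, with the summit base in capitals, from NCBI Release 6 of the genome (the dm6 coordinates). None of these 4 windows of 201 bp held the Extradenticle-Labial word introduced next.
Pde1c coding exon, chr2L:11816564-11816592, minus strand: cagctgcggagccgGcagatggcgctgcg
baz 5' UTR, chrX:17178685-17178713, plus strand: gttaatttagttatGtttttgtatataca
by 3' UTR, chr3R:9528625-9528653, minus strand: tcatatttgtttatAtgcccaagttgtaa
APC7 3' UTR, chrX:6599458-6599486, plus strand: gtctcacatacaacAatagtcctttatca

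The composite word of Extradenticle and Labial, written here as TGATTGAT or TGATGGAT on either strand, was counted in each exon type. It was singled out after its values were seen, among 15 words and 3 exon types. It lay within 100 bp of 12 of 136 3' UTR summits, 1 of 34 coding exon summits and 0 of 76 5' UTR summits. The contrast depended on the window: within 50 bp the word was at 2.94% of both 3' UTR and coding exon summits and at none in 5' UTRs, and within 200 bp at 10.3%, 5.88% and 5.26%. The 3' UTR examples below show 29 bases on the strand that carries the word, with the word in capitals. The distance runs from summit to word centre in genome coordinates, so that a negative one points to lower coordinates. CG43367, CG11378 and ps each held a second word, and the one nearest the summit is printed.
CG5399 at -56 bp, chr3R:15696769-15696797, minus strand: cacgaggccatTGATTGATttatgagctg
CG43367 at -8 bp, chr3L:4222956-4222984, plus strand: gcggcagaaaTGATGGATggcacactccc
Glut4EF at -78 bp, chr3R:9944206-9944234, minus strand: gcccttttgtgTGATTGATgcgttgccat
CG11378 at -18 bp, chrX:1173752-1173780, minus strand: ggaattcgcagTGATTGATtgttcccggc
CG3198 at 56 bp, chrX:6670035-6670063, plus strand: atattgtattTGATTGATtagaatttaat
corto at 60 bp, chr3R:5083376-5083404, minus strand: gcggtgagccgTGATTGATtattgtcatt
CG32720 at -48 bp, chrX:7535607-7535635, plus strand: gtcaaatcgcTGATTGATcgattgtttgc
ps at -46 bp, chr3R:9450846-9450874, minus strand: gactgattggcTGATTGATtggctgattg
Pi3K21B at -60 bp, chr2L:303172-303200, plus strand: tttttgtgtgTGATGGATggcgctggcag

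A GATA word, AGATAAG or TGATAAG, occurred in all 3 exon types, and a GAGA word, GAGAGAG, mostly in 5' UTRs. The examples are printed as above, and hth is included because it encodes the Hox cofactor Homothorax. The Pdp1 word belongs to a longer GA run in which the search found overlapping matches.
l(3)mbn coding exon, GATA at -22 bp, chr3L:6124784-6124812, minus strand: taccctgtaagTGATAAGaggaaattatc
hth coding exon, GATA at -87 bp, chr3R:10605091-10605119, minus strand: gtacacaaacgTGATAAGgatgcgattta
cwo 5' UTR, GATA at 2 bp, chr3R:10388873-10388901, plus strand: cgcacacccagTGATAAGcgaaaaagagt
scf 3' UTR, GATA at -48 bp, chr3L:1300272-1300300, minus strand: gtatcaagtccAGATAAGtggcaatcgta
Pdp1 5' UTR, GAGA at 63 bp, chr3L:7855063-7855091, plus strand: ttcccgtataaGAGAGAGagagagagagg

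The 3 exon types differed in how densely they were occupied. 5' UTR bases beyond 500 bp of a start site held 71.6 IDR summits per Mb, 3' UTR bases held 22.5 and coding bases held 1.82, against 91.7 per Mb in the rest of the genome sequence. Introns held 84.9 per Mb and intergenic sequence 46.4, so that 5' UTR density lay between these. Coding exons made up 13.9% of all bases and 0.335% of summits, and 5' UTRs 0.792% of bases and 0.748% of summits. The replicates' own strongest 10160 peaks, classed by their own summits, gave like counts. They held 80, 74 and 74 summits in 5' UTRs, 39, 30 and 40 in coding exons and 131, 128 and 147 in 3' UTRs. The exonic share was 2.46%, 2.28% and 2.57% in replicates 1, 2 and 3, a mean of 2.44% ± 0.144 (SD, n = 3). The order of the 3 types was the same in every replicate and their ranges did not overlap.

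The 5' UTR summits lay near the 500 bp limit more often than 5' UTR sequence as a whole. Of 76, 49 (64.5%, exact 95% interval 52.7 to 75.1%) were within 1000 bp of a start site, against 40.7% of 5085 windows of 201 bp tiled over 5' UTR sequence outside IDR peaks. Their median distance was 813 bp, against 1296 bp for the windows. For 71 of the 76, the nearest start site was that of the host gene. The base was intronic in another isoform of the same host at 46 of 76 summits (60.5%). It was in an intron of some protein-coding transcript at 48 (63.2%, interval 51.3 to 73.9%), against 37.4% of the windows. The count of 76 rests on the limit, being 145 with a limit of 250 bp and 27 with 1000 bp, and 27 lay on bases exonic in every overlapping transcript. These intervals cover counting error only and treat summits as separate, although 14 of the 76 lay within 300 bp of another IDR summit.

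**Figure D1:**
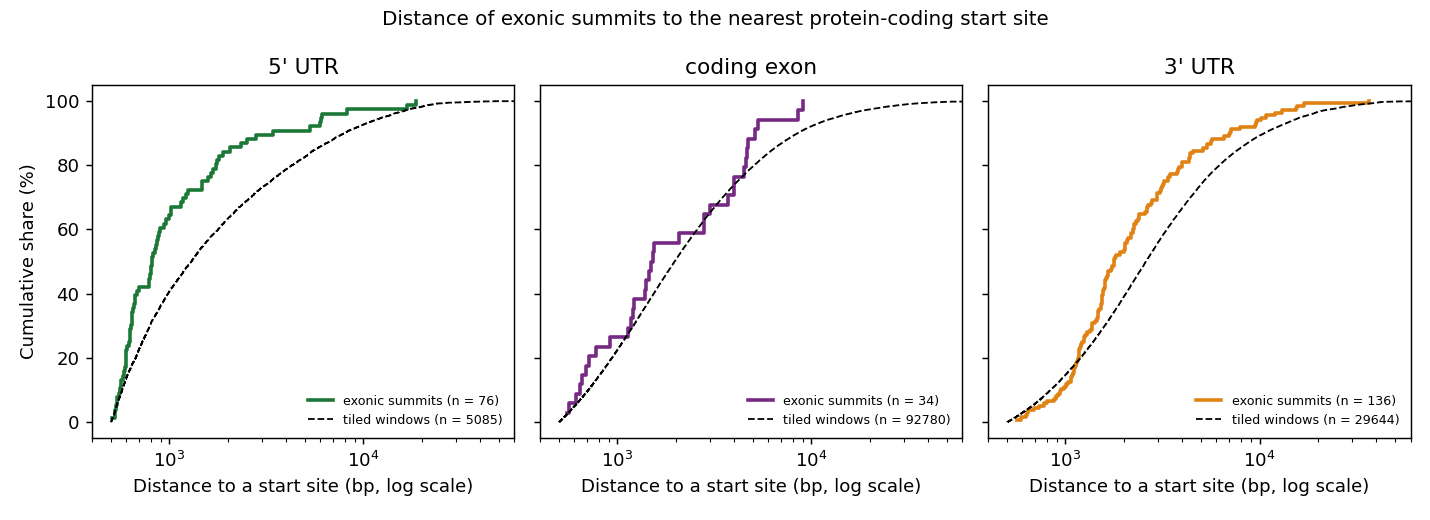
Cumulative share (y, %) of exonic summits (solid) and of windows of 201 bp tiled over the same exon type outside IDR peaks (dashed) by distance to the nearest protein-coding start site (x, bp, log scale). The 5' UTR summits had a median distance of 813 bp against 1296 bp for the windows, and the 3' UTR summits 1773 bp against 2595 bp.

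The strongest 5' UTR summit was in baz (FBgn0000163), which encodes the polarity protein Par-3, at chrX:17178494-17178909. The signal is the authors' own value for a peak, used here only to rank peaks within a list. In baz it was 2256.6, rank 199 of 10160, and the summit ranked 202, 233 and 189 in replicates 1, 2 and 3. It lay 18693 bp from the nearest start site, the farthest of all 5' UTR summits, and was exonic in 2 of the 4 baz transcripts over it. A second baz summit of rank 2824 lay in the same exon.

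The next 5' UTR summits by signal ranked from 643 to 1471. Pdp1, a PAR-domain bZIP factor, had rank 643 and ranks of 550, 745 and 659 in the replicates. The HMG-box repressor gene cic had rank 722 and replicate ranks of 613, 848 and 845. Both summits were found in all 3 replicates with the best mean ranks after baz. CG30015 followed at rank 702, with 761, 1056 and 551 in the replicates. Its summit was also within 500 bp of the start of a noncoding antisense RNA gene. The F-box gene Fbl6 had rank 815, with 821, 751 and 915 in the replicates. SREBP, the activator of lipid synthesis genes, had rank 879, with 1901, 779 and 884. The replicate summits lay 97, 5 and 50 bp from the pooled one, on an intron base in replicate 3, and only the peak of replicate 1 overlapped the pooled peak by 50% or more both ways. The MAST kinase gene dop had rank 1151 with 1267, 1383 and 951, and dos, an adaptor of receptor tyrosine kinase signalling, rank 1471 with 2039, 1190 and 1646. Each of these 8 strongest 5' UTR summits was intronic in another isoform of its host.

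Runs of 5' UTR summits occurred in 2 genes. CAP, which encodes a vinexin-family adaptor of muscle attachment, had 4 summits spread over 27942 bp, of signal 262.0 to 806.5. The gene spen, for an RNA-binding transcriptional corepressor, had 4 within 1111 bp, of signal 321.6 to 518.9. The closest pair was 199 bp apart in CAP and 204 bp in spen, which is less than the usual peak width of 424 bp, so such neighbours share bases.

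The coding exon summits were few, but they held the 2 highest signals of all exonic peaks. The strongest was in otp (FBgn0015524), which encodes the homeodomain factor Orthopedia, at chr2R:20884406-20884761. Its signal was 2675.5, rank 148, with signals of 891.9, 777.1 and 1000.6 and ranks of 118, 191 and 141 in replicates 1, 2 and 3. The 3 replicate summits fell on the same base as the pooled summit. It was the only IDR summit in the gene, and the base was coding in all 9 otp transcripts over it. The nearest start site, that of Cib2, was 4644 bp away.

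Pde1c (FBgn0264815), a calcium-dependent cyclic nucleotide phosphodiesterase gene, had a coding exon summit of signal 2465.3, rank 166, at chr2L:11816399-11816773. It ranked 139, 189 and 186 in the replicates, and its base was coding in all 9 transcripts. l(3)mbn (FBgn0002440), a gene named for a blood cell neoplasm, had signal 1336.4, rank 606, and ranks of 438, 805 and 686 in the replicates. These 3 peaks stood clear of the rest of the type, since the next, in CG4822, ranked 1854. CG4822 ranked 2124, 2120 and 1841 in the replicates, and its base lay inside another gene, ND-15, as well. The actin-binding phosphatase regulator gene bif ranked 2068, with 2863, 2032 and 2119 in the replicates, and had 3 coding summits within 1901 bp. isoQC, for a glutaminyl cyclase, ranked 2186 with a wide range of 2757, 3824 and 1361. klar, which encodes a nuclear positioning protein of the outer nuclear membrane, ranked 2622 with 2333, 3861 and 2903. Tim17b1, for a mitochondrial import protein, ranked 2678 with 3824, 2759 and 2503.

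Of the 34 coding exon summits, 12 (35.3%) lay within 100 bp of an exon edge. A window of 201 bp wholly on exon bases was found at 22 (64.7%), against 69.2% of tiled coding windows. Another isoform of the host had an intron over 7 of them, and an intron of any protein-coding transcript covered 13 (38.2%, interval 22.2 to 56.4%), against 12.2% of 92780 tiled coding windows. The nearest start site belonged to the host at 22. On bases exonic in every overlapping transcript, 21 summits were left.

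**Figure D2:**
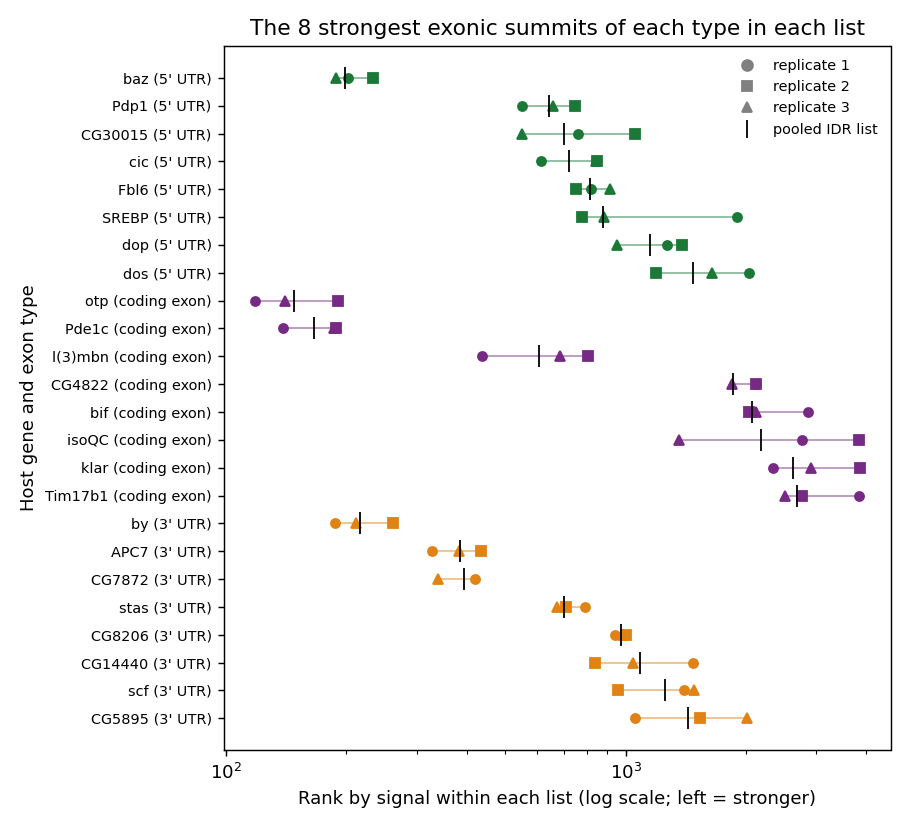
Rank by signal (x, log scale, left is stronger) of the 8 strongest summits of each exon type in the 3 replicate lists (circle, square, triangle) and in the pooled IDR list (black bar), with host genes down the y axis. The otp summit ranked 118 to 191 in the replicates, isoQC spread from 1361 to 3824, and CG7872 had no summit within 100 bp in replicate 2.

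The 3' UTR summits were the largest type and lay close to the ends of their hosts. The median distance to an annotated end of a host transcript was 235 bp, and 34 of 136 summits were within 100 bp of one. To any protein-coding transcript end the median was 226 bp and 25.7% were within 100 bp (interval 18.6 to 33.9%), against 269 bp and 25.7% of 29644 tiled 3' UTR windows, so the position along the 3' UTR did not stand out. For 60 of the 136 the nearest start site was that of a gene other than the host. The median distance to a start site was 1773 bp, against 2595 bp for the windows. Only 12 (8.82%) were intronic in another host isoform, and any protein-coding intron covered 16.2%, against 16.6% of the windows.

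The strongest 3' UTR summit was in by (FBgn0000244), which encodes the focal adhesion protein tensin, at chr3R:9528464-9528830. Its signal was 2189.9, rank 216, with ranks of 187, 262 and 212 in replicates 1, 2 and 3. Annotated 3' UTR bases of by also held 2 weaker summits, of rank 5662 and 9525. The base of the one ranked 5662 was exonic in 2 of the 3 by transcripts over it. APC7, a subunit of the anaphase-promoting complex, had signal 1698.2, rank 385, and ranks of 327, 435 and 382 in the replicates. Its summit lay 590 bp from the start site of the neighbour pigs. CG7872 had signal 1673.4, rank 394, with ranks of 419 and 339 in replicates 1 and 3 and no summit within 100 bp in replicate 2. The replicates thus differed at the third strongest 3' UTR peak.

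The remaining 3' UTR summits completed the 8 strongest of this type. stas ranked 701, with 792, 709 and 673 in the replicates, and was the third best by mean rank among those matched in all replicates. CG8206 ranked 974, with 938, 1004 and 984, and its summit lay 5 bp from the transcript end. CG14440 ranked 1084 with 1478, 838 and 1043. scf, which encodes a DNA supercoiling factor, ranked 1253 with 1402, 957 and 1486, its summit 55 bp from a transcript end. CG5895 ranked 1428 with 1055, 1536 and 2006, 23 bp from an end. Except in stas, no host isoform had an intron over these 8 summits.

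Starts of annotated noncoding genes, which the rule did not consider, lay within 500 bp of 8 of 136 summits in 3' UTRs and 2 of 76 in 5' UTRs. The same share was not computed for other IDR peaks or tiled windows, so these counts are not read as a trait of exonic summits. A tRNA gene lay by both 3' UTR summits of CG12831, mir-92b by that of jigr1, and noncoding RNA genes by those of CG5399, CG43367, CG6125, Ama and CG15255. No summit overlapped an annotated transposon.

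As a description of ranks in 1 pooled list, the exonic peaks were weaker by signal than promoter and intronic peaks. They were close to intergenic ones. Their median rank was 5793, against 5057.5 for all other IDR peaks, 4358 for promoter peaks, 5330.5 for intronic ones and 5812 for intergenic ones. The median rank was 6061.5 in 5' UTRs, 5896 in coding exons and 5669 in 3' UTRs. Of the exonic peaks, 14 (5.69%) were among the strongest 1000, against 9.95% of the others (15.2% at promoters, 7.18% in introns, 6.44% between genes). In the stronger 5080 were 101 (41.1%), against 50.2% of the others (57.0%, 47.7% and 43.3% in the same order). By the replicates' own ranks, the median exonic summit stood at percentile 56.6, 62.4 and 55.9 of the IDR peaks found in replicates 1, 2 and 3, so exonic summits were weaker than the middle of the list in each replicate. Below the IDR limit the pooled list went on for 19840 peaks, of which 4.04% were exonic. The coding share was 0.335% in the IDR list, against 1.55% (307 summits) below its limit.

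**Figure D3:**
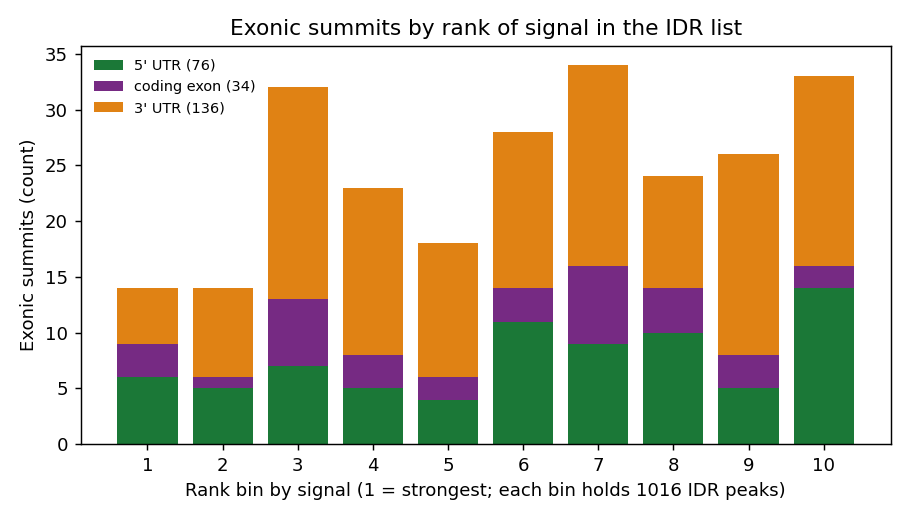
Number of exonic summits (y, stacked by exon type) in 10 bins of IDR peaks ordered by signal (x, bin 1 strongest, 1016 peaks each). The 2 strongest bins held 14 exonic summits each and the weakest held 33.

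Over the 3 exon types together, support in the replicates was close to that of the whole list. The shares of the 3 types in the replicates overlapped with one another. Peaks were matched when each covered 50% or more of the other, and only the strongest 10160 of each replicate could match. All 3 replicates matched 122 of 246 exonic peaks (49.6%), against 55.8% of all IDR peaks. By type these were 39 of 76 in 5' UTRs, 21 of 34 in coding exons and 62 of 136 in 3' UTRs. Replicates 1, 2 and 3 matched 71.5%, 69.9% and 80.1% of the exonic peaks, a mean of 73.8% ± 5.46, against 73.3%, 77.8% and 77.9% of all other IDR peaks, a mean of 76.3% ± 2.60 (SD, n = 3). The difference was -2.49 ± 5.05 percentage points and changed sign between replicates. It did not exceed the spread (two-sided exact permutation test by sign flips, p = 0.75, the smallest possible being 0.25). Without replicate 2 it was 0.193 percentage points. The IDR list was itself made from these replicates, so none of these shares is independent evidence of binding.

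**Figure D4:**
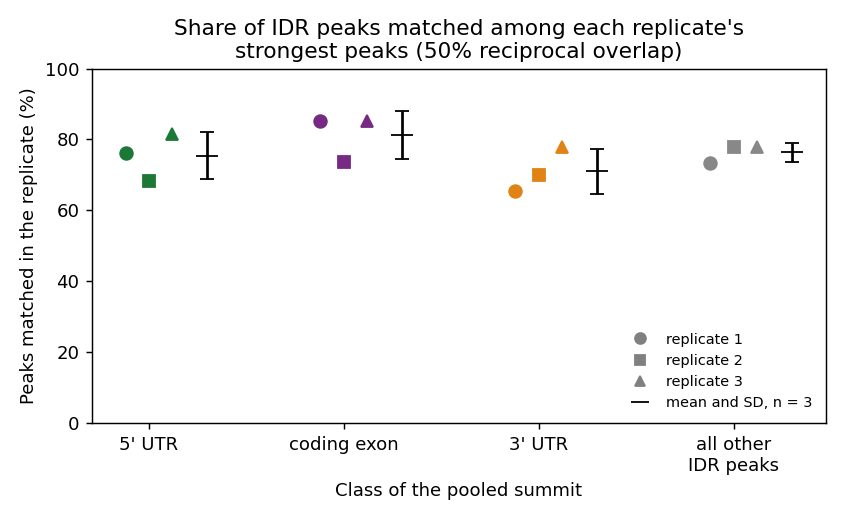
Share of IDR peaks (y, %) with a partner at 50% reciprocal overlap among the strongest 10160 peaks of each replicate (symbols), by exon type and for all other IDR peaks (x), with mean and SD over 3 replicates. Coding exon peaks lay at 85.3%, 73.5% and 85.3% in replicates 1, 2 and 3, and the types overlapped with one another and with the other IDR peaks.

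Over all exonic peaks, summit positions were shared more widely than peak widths. In all 3 whole replicate lists, a summit lay within 100 bp of 218 exonic summits (88.6%), against 88.8% of all IDR peaks. By 50% reciprocal overlap, the whole lists matched 195 exonic peaks (79.3%) in all 3 replicates, of which 63 were in 5' UTRs. The count by summits was also 63 of 76 in 5' UTRs, with 32 of 34 in coding exons and 123 of 136 in 3' UTRs. Limited to the strongest 10160 peaks of each replicate, the count by summits was 148 (60.2%), against 64.7% of all IDR peaks. In the whole lists, only CG14441 and CG42831, ranked 9362 and 9695, had a summit within 100 bp in fewer than 2 replicates. These 2 were named after their values were seen. The whole list of replicate 2 lacked 18 of the 246 summits, and those of replicates 1 and 3 lacked 6 each. Among the strongest 10160 peaks, 33 exonic summits were found in 1 replicate only and 3 in none. The replicate summit stayed on the same exon type in all 3 replicates for 204 (82.9%), which were 59, 28 and 117 in the 3 types. A pooled coding exon summit fell in an intron in replicate 1 at 3 places and in replicate 3 at 3 places.

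Within 100 bp, the Extradenticle-Labial word was in 8.82% of windows at 3' UTR summits (interval 4.64 to 14.9%). It was in 3.29% of windows at all other IDR summits and 2.30% of tiled 3' UTR windows outside peaks. Among the other IDR summits, intronic ones had it in 4.34%, just below that interval, and promoter ones in 1.79%. At the replicates' own 3' UTR summits it was in 8.40%, 7.03% and 7.48%, a mean of 7.64% ± 0.696, against 3.20% ± 0.262 at their other summits (SD, n = 3). The replicates' summits lay mostly at the same places, so these SDs leave out the counting error of the windows, here and for the words below. Within 50 bp the 3' UTR share was 2.94% (4 of 136), against 2.00% of the others, and within 200 bp 10.3%, against 5.51%. The 12 hosts included corto, a chromatin factor gene, ps, the RNA-binding splicing regulator Pasilla, Pi3K21B, a regulatory subunit of PI3 kinase, Glut4EF, a transcription factor gene, and GlcT and Myd88, whose sequences are not printed. The 12 peaks ranked from 1865 to 9366, and 11 had a summit within 100 bp in all 3 replicates. By 50% reciprocal overlap among the strongest peaks, 3 of the 12 were matched in all 3 replicates, against 62 of all 136 3' UTR peaks. None of the 76 5' UTR windows held the word within 100 bp, which allows a share of up to 3.95%, and none did at the replicates' own 5' UTR summits. Within 200 bp it was at 4 of 76 5' UTR summits (5.26%), against 5.51% of the others.

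Other words were searched in the same way, 15 in all, as a description and without a test. The Homothorax word TGACAG was in 5.26% of 5' UTR windows, 11.8% of coding windows and 11.0% of 3' UTR windows. All other IDR summits had it in 7.14%, and tiled windows of the 3 types in 5.92%, 5.42% and 4.53%. At the replicates' own exonic summits TGACAG was in 7.29% ± 0.678, against 7.19% ± 0.0452 at their other summits (SD, n = 3). The GATA word was in 9.21% of 5' UTR windows, 14.7% of coding windows and 10.3% of 3' UTR windows, against 10.5% of windows at all other IDR summits. Tiled windows of the same types held it in 3.82%, 2.96% and 4.67%. The exonic share was thus close to that of the other peaks in the replicates as well, at 10.5% ± 2.53 against 10.3% ± 0.669 (SD, n = 3). GATA words are bound by factors such as Serpent, an endoderm and blood cell regulator.

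The GAGA word, recognised by the GAGA factor, was in 13.2% of 5' UTR windows (10 of 76, interval 6.49 to 22.9%), against 4.90% at all other IDR summits and 4.56% of tiled 5' UTR windows. Promoter summits had it in 7.46%. Within 50 bp it was at 2 of 76 5' UTR summits (2.63%), against 1.86% of the others. In the replicates' own 5' UTR summits its share was 12.8% ± 4.26, against 5.12% ± 0.195 at other summits (SD, n = 3). It was in 2.21% of 3' UTR windows and in 0 of 34 coding windows, which allows up to 8.82%. The homeodomain core TAATTA was in 7.72% of exonic windows, against 14.9% at all other IDR summits. The replicates gave 8.89% ± 0.142, against 14.9% ± 0.536 (SD, n = 3). By type it was at 6.58% of 5' UTR summits, 0 of 34 coding exon summits and 10.3% of 3' UTR summits. Tiled windows held TAATTA in 9.66% (5' UTR), 3.05% (coding) and 17.6% (3' UTR), and GC content moved with exon type. Windows at exonic summits had a median GC content of 44.3% in 5' UTRs, 52.7% in coding exons and 37.8% in 3' UTRs, against 45.3%, 52.2% and 34.8% in the tiled windows and 37.8% at all other IDR summits. The part of GC content in these shares was not tested.

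The promoter word DRE, TATCGATA, was in 0 of 246 exonic windows, which allows a share of up to 1.22%. It was in 2.03% of windows at all other IDR summits and in 4.80% at promoter summits, but in only 0.291% at intronic summits and 0.263% of tiled exon windows, so the count of 0 could not be told from these low shares. Within 200 bp 1 exonic window held it. The replicates' own exonic summits had 0 as well, against 2.16% ± 0.239 at their other summits (SD, n = 3).

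**Figure D5:**
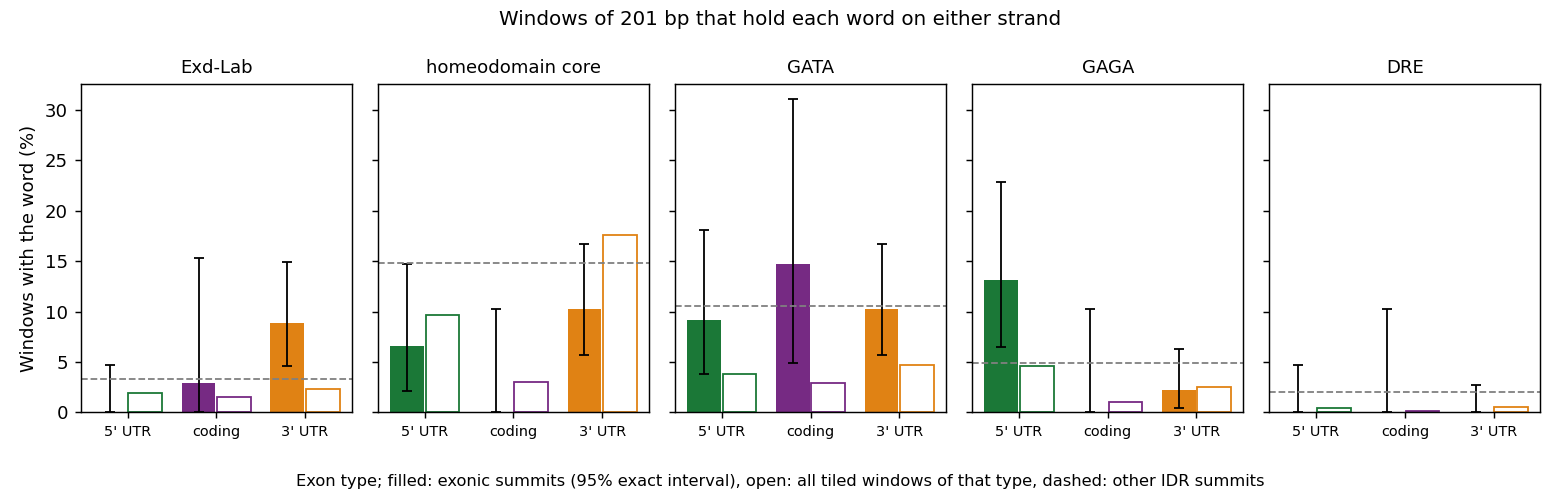
Share of windows of 201 bp (y, %) that hold each of 5 words at exonic summits (filled bars with exact 95% intervals) and in tiled windows of the same exon type outside IDR peaks (open bars); the dashed line is the share at all other IDR summits. The Exd-Lab word is at 8.82% of 3' UTR summits and 0 of 76 5' UTR summits, GAGAGAG at 13.2% of 5' UTR summits, and the DRE word at no exonic summit.

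The 246 summits fell in 221 host genes, of which 201 held 1 summit and 20 held more. Hosts numbered 66, 32 and 127 for 5' UTRs, coding exons and 3' UTRs. Of all hosts, 121 (54.8%, interval 47.9 to 61.4%) also had an IDR summit at a promoter, against 63.3% of the 1678 genes over an intronic summit and 25.5% of all 13945 protein-coding genes. Hosts were long, with a median of 7193 bp against 2166 bp for all genes, and 17279.5 bp for genes over an intronic summit. The part of gene length in these shares was not tested. The median was 17464.5 bp for 5' UTR hosts, 18242 bp for coding exon hosts and 4493 bp for 3' UTR hosts. An intronic summit was present in 45 of 66 5' UTR hosts, 16 of 32 coding exon hosts and 39 of 127 3' UTR hosts, together 97 of 221 hosts, against 1678 of all 13945 protein-coding genes. For 65 of the 136 3' UTR summits it was the only IDR summit over the host, as for 15 of 76 in 5' UTRs and 12 of 34 in coding exons. No such share was computed for other IDR peaks, and the part of gene length in it was not tested.

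Of 21 gene lists, 11 had a host, and 14 listed genes hosted an exonic summit. Across all protein-coding genes the share of hosts was 1.58%. Of the 13 homeotic genes and Hox cofactors, only hth hosted one, in a coding exon, with rank 7852. It had ranks of 9490 and 9209 in replicates 2 and 3 and no summit within 100 bp in replicate 1. The head and gap, dpp, Notch, hedgehog, chromatin and insulator, heat shock, translation factor, glia, epidermis and trachea, and germ line lists had no host.

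The hosts on the midgut, muscle, blood cell, Wingless, EGFR and Hippo lists, and ftz-f1 of the ecdysone list, had their summits in 5' UTRs. Mef2, the muscle and midgut mesoderm factor, ranked 2633, with 2178, 3917 and 2519 in the replicates. srp, the GATA factor of endoderm and blood cells, ranked 6932, with 5210 and 7256 in replicates 1 and 3 and no summit within 100 bp in replicate 2. fz, a Wingless receptor, ranked 4867 with 3566, 5467 and 5237. In the EGFR list, S, which encodes the ligand chaperone Star, ranked 6326 with 8862, 7392 and 4473, and the ligand gene vn ranked 9395 with 6604, 12244 and 12727. The Hippo pathway kinase gene wts ranked 7307 with 4665, 8832 and 10871. The nuclear receptor gene ftz-f1 ranked 9863 with 9738, 13483 and 8387. Apart from Mef2 and fz, these lay in the weaker 5080 peaks.

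Of the 14 genes on the neuron list, 3 hosted a summit, each in a 3' UTR. elav, for an RNA-binding protein of neurons, ranked 2306 with 2924, 2730 and 1984 in the replicates, and its base lay inside a second gene, arg. Its relative fne ranked 4367 with 5348, 5343 and 3964. The syntaxin gene Syx1A ranked 5509 with 4946, 7481 and 5446, in a base that eIF4EHP also covers. The nuclear receptor gene Hr4 ranked 1934 with 1523, 2600 and 2175. chic, for profilin, ranked 3871 with 2629, 4235 and 7892, and RpS26, the only one of 85 ribosomal protein genes, ranked 8222 with 11160, 12136 and 7551. With so few hosts per list, these are counts and not a difference between lists.

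At the 500 bp limit, the nearest members inside were FucTC, at 509 bp with signal 524.0, and Fbl6, at 522 bp with 1136.4. The nearest 5' UTR summits outside it were egr, at 493 bp with signal 250.1, and COX7AL2, at 486 bp with 323.8. All 4 had a summit within 100 bp in all 3 replicates. By 50% reciprocal overlap, FucTC was matched in 0 replicates and Fbl6 in 3, and egr in 2 and COX7AL2 in 3.

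Apart from chromosome 4, the arms held from 7.84 (2L) to 11.7 (2R) exonic summits per Mb of exonic bases. By type, the range was 54.0 (3R) to 99.6 (2R) in 5' UTRs and 17.5 (3L) to 29.4 (2R) in 3' UTRs. In coding exons it was 1.57 (3R) to 2.11 (X). Arms X and 2R held 56 each (22.8%), with 19.2% and 18.6% of the exonic bases, 3R held 57, 3L 41 and 2L 36. Chromosome 4 held none, with 9 IDR peaks in all. Of the exonic summits, 32 (13.0%) lay within 300 bp of another IDR summit, against 13.7% of the others.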

How the data were processed

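The authors deposited ranked narrowPeak lists in dm6, 1 of 30000 peaks for each replicate and 1 for the pooled reads, and an IDR list of 10160 peaks. Per the deposited file descriptions, each list was called on alignments against the shared control. The deposited −log10 q reached a ceiling of 4.15 in the IDR list, so peaks were ranked by the deposited signal. The IDR list was the 10160 strongest pooled peaks. Read depth is unknown. Which aligner, caller and IDR threshold were used is not given in the sources used here.

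Summits were classed in the order promoter, 5' UTR, coding exon, 3' UTR, intron and intergenic with Ensembl release 115 on 6 chromosome arms. Stop codons counted as coding. Coordinates are 1-based. Tiled windows of 201 bp lay outside IDR peaks, classed by their centre. Intervals are exact binomial, and 0 counts allow 3 of the total. The work used matplotlib 3.10.9, pandas 2.3.3, scipy 1.17.1 and numpy 2.4.6 under Python 3.11.15. The overlaps were checked against bedtools 2.31.1, with 0 differences, and the classes, overlaps and word searches were checked on planted examples. The 3 replicate lists had 0 rows in common and were treated as separate samples.

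The members, the 21 gene lists (364 of 370 symbols found) and the 15 words were chosen with earlier results of these data known. Named genes were hosts of the 8 highest signals per exon type, of the 3 per type with the best mean replicate rank, every host on a list, and the 2 summits nearest each side of the 500 bp limit. The neighbours, tiled-window positions and replicate word shares were computed after the values were seen, as were the examples among hosts with several summits, hosts of the word and hosts near noncoding genes.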

Additional observations from a re-analysis of the deposited data

How the results depend on the processing

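A start site window of 250 bp gave 145 summits in 5' UTRs and one of 1000 bp gave 27, against 76 with 500 bp. Counting only bases exonic in every overlapping transcript left 27 in 5' UTRs and 21 in coding exons, and the stronger 5080 peaks held 27, 15 and 59 of the 3 types. All other alternatives for the 3 counts stayed within 1.5 times. The share matched in all 3 replicates was 68.7% with 1 bp overlap, 31.7% with 80% reciprocal overlap, 60.2% with summits within 100 bp and 79.3% with the whole replicate lists, and 55.3 to 62.6% when a replicate was left out, which by construction asks for 2 replicates only. The difference from the other IDR peaks ranged from -4.82 to 0.193 percentage points without 1 replicate, turning positive without replicate 2, and the cause was not tested. The mean exonic share of the replicate lists was 3.82% for whole lists, 3.28% at 250 bp and 1.69% at 1000 bp. The median rank percentile, 57.0, ranged from 56.3 to 59.5. Exonic over other windows, the TAATTA share was 0.249 times within 50 bp, against 0.519 times within 100 bp, and the words TGACGTCA and CACGTG were at 0 times within 50 bp. No paired analysis was possible because the labels give no second group to pair; the exonic and other peaks were compared within each replicate. Depth is unknown, and 34 coding summits give wide intervals.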
